A study of Mus musculus with 10 samples.

Results

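Beta-catenin and its core target genes were described as 10 genes taken by symbol: Ctnnb1, Axin2, Lef1, Tcf7, Nkd1, Notum, Sp5, Znrf3, Rnf43 and Myc. All 10 were found once among the 47643 genes of the count table, and 7 of them had enough reads in enough tumours to be tested. The question was whether the transcriptional output of the canonical Wnt pathway was higher in melanomas labelled Fes KO. RNA was sequenced from 10 mouse melanomas, 5 labelled Fes KO (Fes-/-) and 5 labelled Fes WT (Fes+/+). Both groups carried Tyr::CreERT2 in 1 copy, BRafV600E in 1 copy and Ptenl/l, and both were given 4OH-Tamoxifen at 5 mM on the back skin. The Tyr promoter restricts this inducible recombinase to cells of the melanocyte lineage, whereas the label gives Fes loss as a genotype of the animal. Age is not given in the labels used here, and no label says that tumours came from separate animals, so each p-value measures the spread between these tumours.

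In the canonical Wnt pathway, beta-catenin is held low in the cytoplasm by a destruction complex of Axin, Apc, Gsk3 and casein kinase. A Wnt ligand bound to a Frizzled receptor and Lrp5 or Lrp6 stops this breakdown, and beta-catenin then enters the nucleus and joins the TCF/LEF factors on target genes. Several of the target genes encode brakes on the pathway, among them Axin2, Nkd1, Notum, Znrf3 and Rnf43, and are used as readouts of it. In the melanocyte lineage the pathway acts in neural crest specification and upstream of Mitf. Because the activity of beta-catenin is set mainly by protein stability, the level of its mRNA is not a readout of the pathway.

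Total counts ranged from 13226783 to 16599120 per tumour. The melanocyte lineage factor Sox10 was present in every tumour, with a range of 392 to 970 CPM (counts scaled to library size) for Fes KO and 461 to 809 CPM for Fes WT, whereas the pigment enzyme Tyr was at only 0.457 to 2.03 CPM in Fes WT. Fes itself was at 29.2 to 57.5 CPM in the 5 Fes KO tumours and at 72.4 to 102 CPM in Fes WT, so that Fes reads were still counted in every tumour labelled Fes KO. It was lower in every Fes KO tumour than in any Fes WT tumour, with an edgeR log2 fold change of -1.06 (SE 0.19, Benjamini-Hochberg adjusted p = 0.0846, exact permutation p = 0.00794, 2-sided, the smallest this design allows). Fes is expressed in myeloid cells, and the macrophage markers moved the same way: 13 of 13 had a log2 fold change below 0 (median -0.80), 7 of them with an unadjusted edgeR p below 0.05 against 5.39% of all genes in that direction, and 0 were called. All 13 had reads in every tumour, and they summed to 967 to 2290 CPM for Fes KO and 1571 to 3679 CPM for Fes WT. Their part in the Fes result was not tested. Some libraries stood apart. The keratinocyte markers summed to 7377 CPM in Fes KO 2, and the 4 remaining Fes KO tumours had sums of 191 to 292 CPM, Fes WT 3 had skeletal muscle markers at a summed 17419 CPM, and Xist was at 670 to 720 CPM in Fes KO 1, Fes KO 2 and Fes WT 5. In bulk tumour RNA, fewer cells of a type and less RNA per cell cannot be told apart.

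The promoter sequences are shown for the members in which letters bound by TCF/LEF factors were found, with Axin2 beside them as the tested member with the largest difference. The RefSeq promoter table (GRCm38.p6) held 13 windows for 7 of the 10 members, each of 300 bases, from 250 before to 50 after a start. Notum, Znrf3 and Myc had no entry. The motifs searched on both strands were CTTTGA and CTTTGT, neither of which overlaps the other in letters matched here, and capitals mark them and their reverse complements TCAAAG and ACAAAG. The Sp5 window is at chr2:70474673-70474972 (plus strand), the Lef1 window belongs to a start inside the gene at chr3:131156044-131156343 (plus strand), and the Axin2 window is at chr11:108920099-108920398 (plus strand).
Sp5: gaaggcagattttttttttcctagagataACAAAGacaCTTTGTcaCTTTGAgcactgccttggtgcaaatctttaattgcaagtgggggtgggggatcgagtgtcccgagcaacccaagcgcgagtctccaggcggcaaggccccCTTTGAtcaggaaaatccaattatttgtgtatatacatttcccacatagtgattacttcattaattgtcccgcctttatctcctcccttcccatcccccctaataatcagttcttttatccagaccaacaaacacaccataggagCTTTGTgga
Lef1, internal start: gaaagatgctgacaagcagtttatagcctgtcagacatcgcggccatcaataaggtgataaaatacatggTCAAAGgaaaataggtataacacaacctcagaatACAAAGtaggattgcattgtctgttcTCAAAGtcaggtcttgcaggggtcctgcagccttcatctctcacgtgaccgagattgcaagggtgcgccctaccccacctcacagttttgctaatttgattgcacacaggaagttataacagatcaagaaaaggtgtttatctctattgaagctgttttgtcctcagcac
Axin2: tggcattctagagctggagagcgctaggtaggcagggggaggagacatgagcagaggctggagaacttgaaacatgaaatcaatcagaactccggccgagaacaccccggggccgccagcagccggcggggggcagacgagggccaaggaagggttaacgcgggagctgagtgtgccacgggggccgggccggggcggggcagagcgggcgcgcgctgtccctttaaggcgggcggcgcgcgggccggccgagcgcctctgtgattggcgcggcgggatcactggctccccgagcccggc
The Sp5 window held 5 matches, of which 3 lay at -221, -212 and -204 bases from the start. The internal Lef1 window held 3 matches and the Axin2 window none. Of the 13 member windows, 2 held at least 1 of the motifs, against 31.2% of all 32851 promoters in the table. CTTTGA was in 16.0% and CTTTGT in 18.7% of all promoters. The longer CTTTGAT, which contains CTTTGA, was in 3.73% of them and among the members only in Sp5. CACGTG, the letters bound by MYC and MAX, were in 7.15% of all promoters and in 1 member window, the internal one of Lef1. These matches describe letters in a short window. The window with the most matches belonged to Sp5, the member with the lowest level.

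Set per kilobase of exon so that genes can be compared, the levels fell in a wide order. Over the 10 tumours, Ctnnb1 averaged 159 ± 18.4 CPM per kilobase (SD). Myc followed at 11.9 ± 4.29, Tcf7 at 11.4 ± 3.11 and Axin2 at 4.12 ± 2.12 CPM per kilobase. Ctnnb1 stood above every other member in all 10 tumours without overlap of the ranges, while Myc was above Tcf7 in only 4 tumours, so the order of that pair lay within their spread. Below them came Nkd1 at 1.80 ± 0.51, Znrf3 at 1.03 ± 0.241, Lef1 at 0.466 ± 0.665 and Notum at 0.314 ± 0.703 CPM per kilobase. Rnf43 averaged 0.199 ± 0.461 and Sp5 0.0208 ± 0.0479 CPM per kilobase. For Lef1, Notum, Rnf43 and Sp5 the SD exceeded the mean, and Notum was above Rnf43 in only 6 tumours. Axin2 was above Nkd1 in all 10 tumours although their ranges overlapped.

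No member differed between Fes KO and Fes WT past an adjusted p of 0.05. In the whole table edgeR called 26 of 14816 genes, 0.175% of those tested (0.0472% as higher and 0.128% as lower in Fes KO). DESeq2 called 1.09% of the 27493 genes to which it gave a p (0.36% as higher), and limma-voom called 0.776% (0.209% as higher). Of the 7 members tested, 0 were called by edgeR, DESeq2 or limma-voom, 0 had an unadjusted edgeR p below 0.05, which 9.62% of all genes had, and 0 had groups that did not overlap, which 1.9% of all genes had. Of the same 7 members, DESeq2 also gave 0 with an unadjusted p below 0.05, and limma-voom gave 1, Axin2. Among the edgeR alternatives, Axin2 had an unadjusted p of 0.0223 without Fes WT 5 and 0.00974 without the 3 Xist-expressing tumours, and Lef1 one of 0.0425 with the T cell covariate, with edgeR adjusted p from 0.183 to 0.379 in these 3 fits. The log2 fold change was above 0 in 6 of the 7 members, against 52.4% of all genes, with a median of 0.22 beside 0.01 over all genes. Without Fes KO 2 the median over the members was 0.06, and without the 3 Xist-expressing tumours it was -0.05. The intervals bound each difference: the 95% interval of the fold change excluded a 2-fold rise for Ctnnb1, Tcf7, Nkd1, Znrf3 and Myc but not for Axin2 or Lef1.

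**Figure D1:**
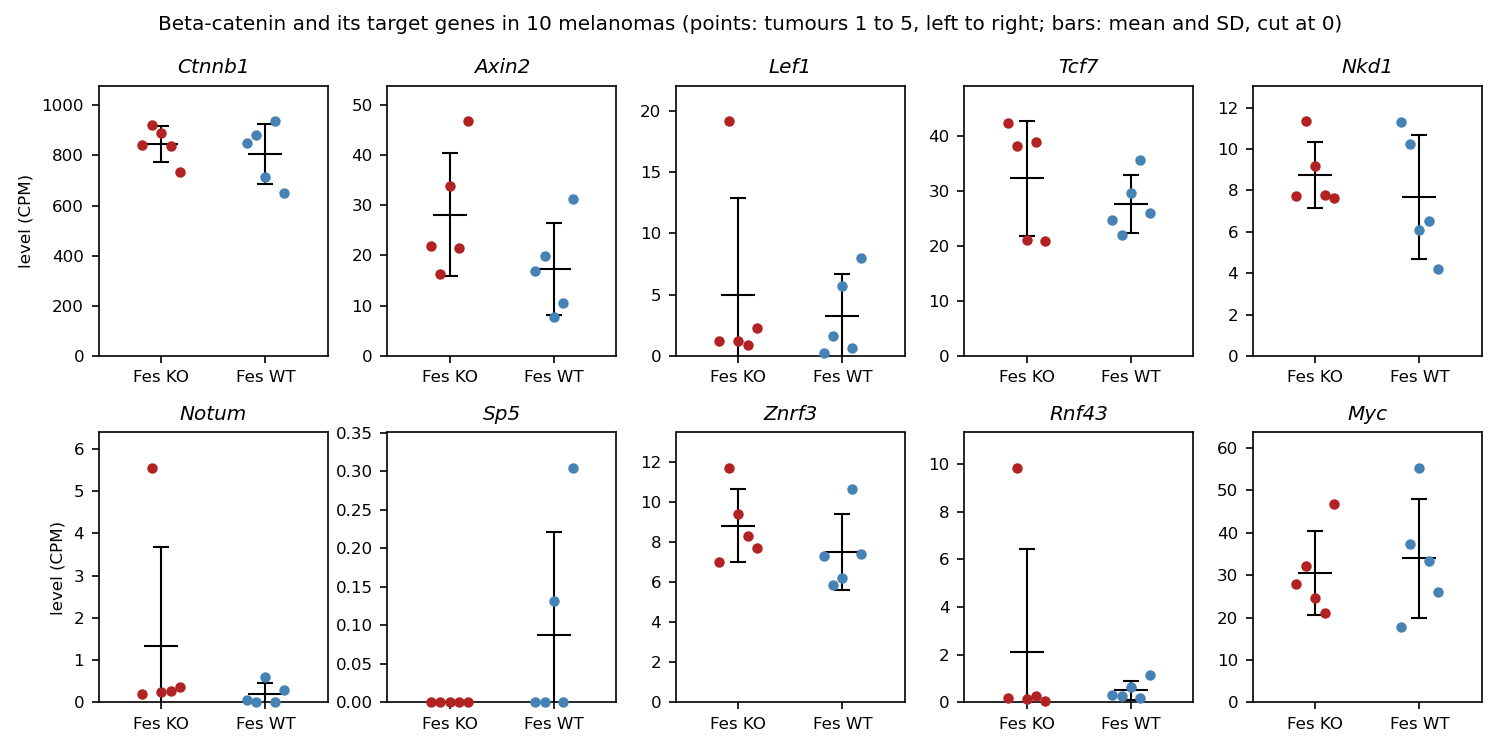
Level of each member in CPM (vertical axis, separate scale per gene, starting at 0) in the 5 Fes KO and 5 Fes WT tumours; each point is a tumour, numbered 1 to 5 from left to right, and bars give the mean and SD, cut at 0. The groups overlap for every member, and Fes KO 2 stands alone at 19.1 CPM of Lef1, 5.55 CPM of Notum and 9.85 CPM of Rnf43.

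Ctnnb1 encodes beta-catenin, which is both the coactivator of TCF/LEF factors and a link between cadherins and alpha-catenin (ENSMUSG00000006932, GRCm38 chromosome 9, 120929216 to 120960507, plus strand). Its level was 842, 923, 888, 838 and 732 CPM in Fes KO 1 to 5 and 851, 883, 714, 937 and 650 CPM in Fes WT 1 to 5. The 2 groups covered nearly the same range, with Fes WT 4 the highest and Fes WT 5 the lowest of the 10 tumours. The means were 845 ± 72.0 and 807 ± 120 CPM (SD, n = 5 each), and edgeR gave a log2 fold change of 0.07 (SE 0.13, Benjamini-Hochberg adjusted p = 0.902). The 95% interval ran from 0.858-fold to 1.28-fold, so that the beta-catenin transcript was bounded closely. Its direction turned in 3 alternatives, all near 0, the lowest of them -0.05 without the Xist-expressing tumours.

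Axin2 encodes a scaffold of the destruction complex and is the target gene most used as a readout of the pathway (ENSMUSG00000000142, chromosome 11, 108920349 to 108950783, plus strand). Its level was 21.8, 16.3, 33.8, 21.6 and 46.7 CPM in Fes KO 1 to 5 and 17.0, 19.9, 7.74, 10.6 and 31.3 CPM in Fes WT 1 to 5. In Fes KO, 4 of 5 tumours lay above the Fes WT median, but Fes WT 5 was above 3 of the Fes KO tumours and the groups overlapped. The mean was 28.1 ± 12.2 CPM over the Fes KO tumours and 17.3 ± 9.23 CPM over the Fes WT tumours (SD, n = 5 each), a log2 fold change of 0.70 (SE 0.40). This was the largest difference among the tested members and did not pass the test (edgeR adjusted p = 0.600, exact permutation p = 0.111, 2-sided), with an interval from 0.877-fold to 3.00-fold. The value depended on single tumours: it was 0.43 without Fes KO 5 and 1.02 without Fes WT 5, and 1.30 without the 3 Xist-expressing tumours, where the edgeR adjusted p was 0.183. With the T cell marker level as a covariate it was 0.35, and the T cell markers, with sums of 4.87 to 33.9 CPM for Fes KO and 14.3 to 49.5 CPM for Fes WT, were lower in Fes KO for 11 of 11 tested markers. Of all genes, 52.4% had a value above 0. Among these 11 markers, 0 were called by edgeR and 0 had an unadjusted edgeR p below 0.05 (lowest adjusted p 0.561). Every one of the 15 T cell markers had reads in 8 of the 10 tumours. Against the mean log2 CPM of the 11 tested T cell markers, Axin2 had r -0.57 (permutation p = 0.0806, adjusted 0.564, rho -0.60 with permutation p = 0.0745). Without Fes KO 3 and Fes WT 5, r was -0.84 (permutation p = 0.0112), and on residuals from the group means it was -0.41 (permutation p = 0.238). Beyond these values, the part of the T cell markers in the Axin2 result was not tested.

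**Figure D2:**
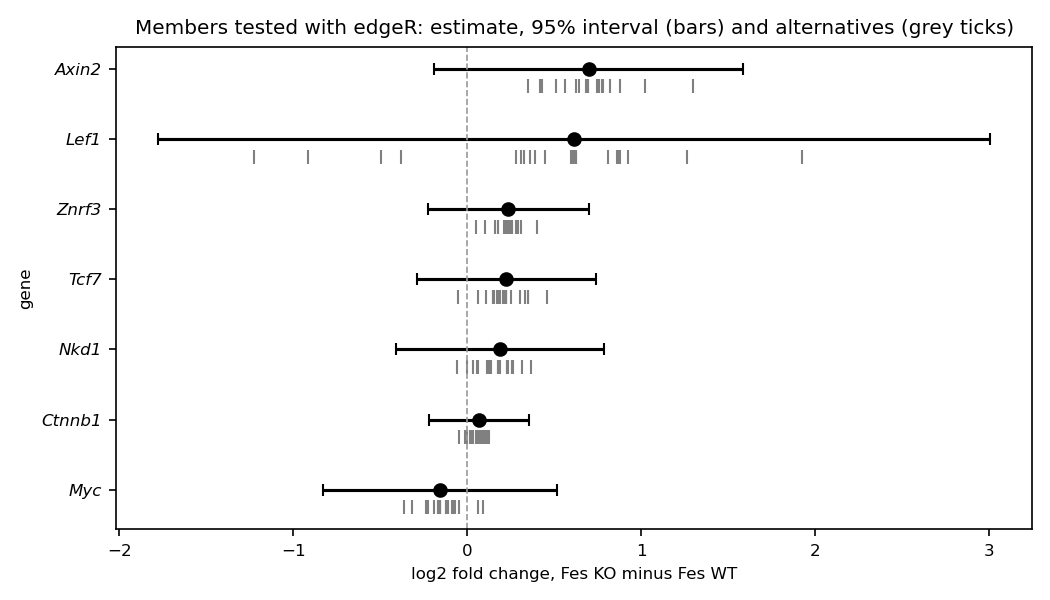
Log2 fold change of Fes KO minus Fes WT (horizontal axis) for the 7 members tested; points are edgeR estimates, bars their 95% intervals, and grey ticks the values under the alternative settings and with tumours left out. All 7 intervals cross 0, and the Axin2 alternatives run from 0.35 to 1.30 while those of Lef1 lie on both sides of 0.

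Nkd1 encodes a protein that binds Dishevelled and dampens the pathway (ENSMUSG00000031661, chromosome 8, 88521354 to 88594884, plus strand). It was at 7.76, 11.3, 9.18, 7.78 and 7.65 CPM in Fes KO 1 to 5 and at 11.3, 10.2, 6.10, 6.53 and 4.19 CPM in Fes WT 1 to 5. All 5 Fes KO tumours lay above the Fes WT median, but Fes WT spread further in both directions than 4 of them, and Fes WT 1 equalled the highest Fes KO tumour at this precision. The means were 8.74 ± 1.59 and 7.67 ± 2.99 CPM (SD, n = 5 each), with a log2 fold change of 0.19 (SE 0.27, edgeR adjusted p = 0.856). Znrf3 encodes a membrane ubiquitin ligase that removes Frizzled receptors from the cell surface (ENSMUSG00000041961, chromosome 11, 5276324 to 5444847, minus strand). It was at 7.00, 11.7, 9.43, 8.30 and 7.73 CPM in Fes KO 1 to 5 and at 7.31, 5.86, 6.23, 10.7 and 7.39 CPM in Fes WT 1 to 5. Apart from Fes WT 4, which was above 4 of the Fes KO tumours, the Fes WT tumours lay at or below the middle of the Fes KO range. The means were 8.84 ± 1.84 and 7.50 ± 1.90 CPM (SD, n = 5 each), and the log2 fold change was 0.24 (SE 0.21, edgeR adjusted p = 0.741).

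Rnf43, Notum and Sp5 were too low to be tested with the other members. Rnf43 encodes the ubiquitin ligase paired with Znrf3 (ENSMUSG00000034177, chromosome 11, 87662722 to 87735539, plus strand). Its level was 0.189, 9.85, 0.123, 0.262 and 0.0729 CPM in Fes KO 1 to 5 and 0.327, 0.255, 0.656, 0.183 and 1.14 CPM in Fes WT 1 to 5. Of its 168 reads in Fes KO, 158 came from Fes KO 2, and the 4 remaining Fes KO tumours had 1 to 4 reads each. The difference in mean log2 CPM was 0.05 (exact permutation p = 0.976, 2-sided, n = 5 each) and -0.99 without Fes KO 2. Notum encodes a secreted enzyme that removes the lipid of Wnt ligands (ENSMUSG00000042988, chromosome 11, 120653788 to 120661175, minus strand). It was at 0.189, 5.55, 0.247, 0.262 and 0.364 CPM in Fes KO 1 to 5 and at 0.0653, 0, 0.591, 0 and 0.305 CPM in Fes WT 1 to 5. Fes KO 2 gave 89 of the 105 reads in Fes KO, while Fes WT had 14 reads in all. The difference in mean log2 CPM was 1.396 (exact permutation p = 0.143, 2-sided, n = 5 each) and 0.61 without Fes KO 2. Sp5, which encodes a zinc finger repressor of Wnt targets, had 0 reads in all 5 Fes KO tumours, where a floor of 3 reads over the group stands at 0.0389 CPM (ENSMUSG00000075304, chromosome 2, 70474923 to 70477729, plus strand). It had 2 reads in Fes WT 3 and 4 in Fes WT 5, and none in the other Fes WT tumours, which is too few to compare the groups at this depth.

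Lef1 and Tcf7 encode factors that carry beta-catenin to DNA, are themselves Wnt targets, and are also abundant in T cells. Lef1 (ENSMUSG00000027985, chromosome 3, 131110471 to 131224356, plus strand) was at 1.20, 19.1, 1.23, 0.915 and 2.26 CPM in Fes KO 1 to 5 and at 0.261, 1.59, 5.71, 0.671 and 8.003 CPM in Fes WT 1 to 5. Fes KO 2, Fes WT 5 and Fes WT 3 stood above the other tumours, none of which exceeded 2.26 CPM. The means were 4.95 ± 7.95 and 3.25 ± 3.43 CPM (SD, n = 5 each), with a log2 fold change of 0.61 (SE 1.08, edgeR adjusted p = 0.889) that became -1.22 without Fes KO 2 (edgeR adjusted p = 0.631). With the T cell level as a covariate it was 1.93 (edgeR adjusted p = 0.379). Tcf7 (ENSMUSG00000000782, chromosome 11, 52252371 to 52283014, minus strand) was at 42.4, 38.3, 21.2, 38.9 and 20.8 CPM in Fes KO 1 to 5 and at 24.8, 22.0, 29.7, 35.7 and 26.1 CPM in Fes WT 1 to 5. The Fes KO tumours fell on both sides of most Fes WT tumours, 3 of them above all of Fes WT and 2 below all of it. The means were 32.3 ± 10.4 and 27.7 ± 5.28 CPM (SD, n = 5 each), with a log2 fold change of 0.22 (SE 0.23, edgeR adjusted p = 0.787).

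Myc encodes the transcription factor that drives growth and ribosome genes, and responds to many inputs beside beta-catenin (ENSMUSG00000022346, chromosome 15, 61985391 to 61990374, plus strand). Its level was 27.9, 32.1, 24.7, 21.1 and 46.9 CPM in Fes KO 1 to 5 and 17.8, 37.3, 55.3, 33.4 and 26.1 CPM in Fes WT 1 to 5. The lowest and the highest of the 10 tumours were both Fes WT. The means were 30.5 ± 10.003 and 34.0 ± 14.1 CPM (SD, n = 5 each), and the log2 fold change of -0.16 (SE 0.30, edgeR adjusted p = 0.901) was 0.09 without Fes WT 3. Myc was the only tested member with a value below 0.

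Across the 10 tumours, the level of Axin2 was set against that of each other member. Pearson's r was -0.47 for Tcf7 (Spearman's rho -0.43, permutation p 0.168 for r and 0.216 for rho, adjusted p of r 0.698, r -0.45 without the 2 tumours farthest in Axin2), -0.24 for Ctnnb1 (rho -0.31, permutation p 0.506 and 0.389) and -0.27 for Rnf43 (rho -0.50, permutation p 0.442 and 0.146). The remaining members had r between -0.24 for Myc and 0.0018 for Znrf3, with permutation p of at least 0.512. No relation of Axin2 with another member therefore passed the test. In all, 49 relations were computed, those of Axin2 with the 9 other members and those of all 10 members with the keratinocyte, T cell, fibroblast and proliferation lists, and 0 passed an adjusted permutation p of 0.05 by either measure. By Pearson's r, the genes most like Axin2 among 13027 genes with at least 1 CPM were Zfand2b at 0.95, Mfge8 at 0.95, Csad at 0.94, Pddc1 at 0.94 and Dus3l at 0.93. The nearest other member in that order, Znrf3, ranked 6093.

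Lef1, Rnf43 and Notum were highest in Fes KO 2, the tumour with the most keratinocyte and hair follicle RNA. The keratinocyte marker level was the mean log2 CPM of the 5 of 15 keratinocyte markers that were tested, Itga6 among them and Krt5 not. Against it, r was 0.85 for Lef1 (permutation p = 0.00171, adjusted 0.0652, rho 0.70 with permutation p = 0.0287), and 0.71 without the 2 tumours farthest from the median (permutation p = 0.0827). For Rnf43, r was 0.95 (permutation p = 0.00266, adjusted 0.0652, rho 0.53 with permutation p = 0.123) and 0.74 without those tumours (permutation p = 0.0865). For Notum, r was 0.87 (permutation p = 0.0106, adjusted 0.136, rho 0.44 with permutation p = 0.206) and 0.10 without them, so that relation rested on those tumours. The 3 tumours with the highest keratinocyte marker level, Fes KO 2, Fes WT 3 and Fes WT 5, were also the 3 with the most Lef1 and the most Rnf43. All 15 keratinocyte markers had reads in Fes KO 2 and 8 to 14 of them in the other tumours, and their sum in Fes WT was 140 to 456 CPM. Of that sum, Itga6 alone gave 118 to 163 CPM. Krt5, a keratin of basal keratinocytes, was at 1596 CPM in Fes KO 2, 74.5 CPM in Fes WT 5 and 22.4 CPM in Fes WT 3. In the remaining tumours Krt5 was at no more than 1.39 CPM, with 0 reads in Fes WT 4. Hair follicle markers summed to 9832 CPM in Fes KO 2, to 707 CPM in Fes WT 3, and to 16.6 to 60.1 CPM elsewhere. T cell markers were high in the same tumours, with r of 0.71 for Rnf43 (rho 0.88, adjusted permutation p = 0.136 for r and 0.0759 for rho, r 0.72 without Fes KO 3 and Fes WT 5) and 0.53 for Lef1 (rho 0.35, permutation p 0.113 for r and 0.330 for rho, r 0.46 without those 2 tumours). Taken on residuals from the group means, the relations of Lef1, Notum and Rnf43 with the keratinocyte markers (r 0.85, 0.97 and 0.95) and those of Notum and Rnf43 with the T cell markers (r 0.81 and 0.86) passed an adjusted permutation p of 0.05, with unadjusted permutation p of 0.00026 to 0.00301. Fes KO 2 was kept in these residuals, and their r was not recomputed without it. The part of skin or T cell RNA in these values was not tested.

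**Figure D3:**
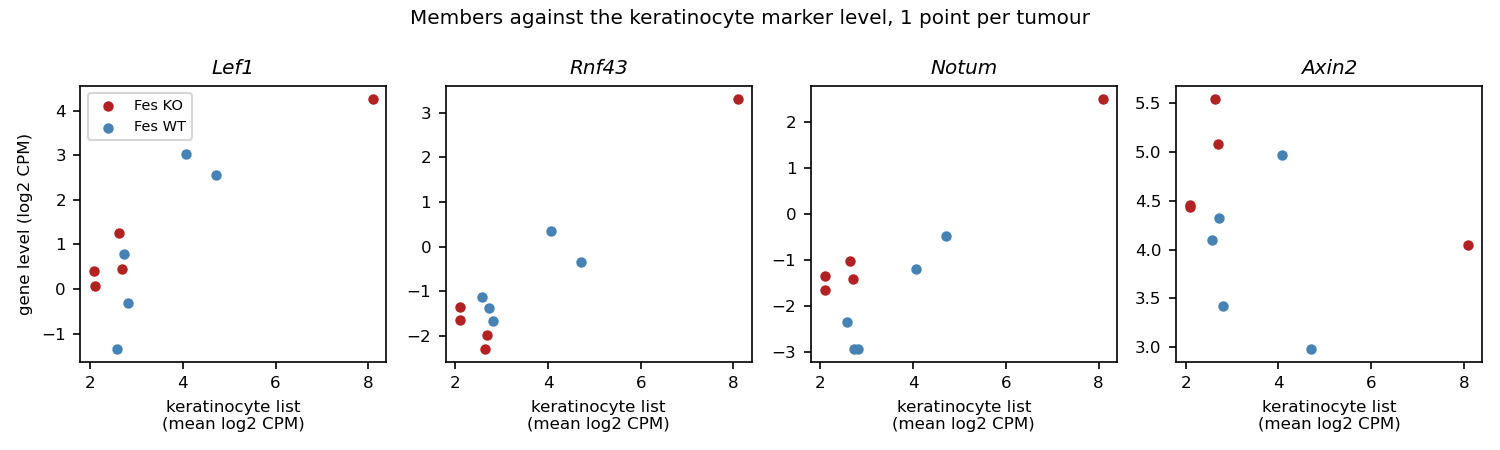
Level of 4 members (log2 CPM, vertical axis) against the mean log2 CPM of the 5 keratinocyte markers tested (horizontal axis), with each point a tumour and colours giving the group. Fes KO 2 sits alone at the right with a marker level of 8.09 and the highest Lef1, Rnf43 and Notum, while its Axin2 lies among the other tumours.

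**Figure D4:**
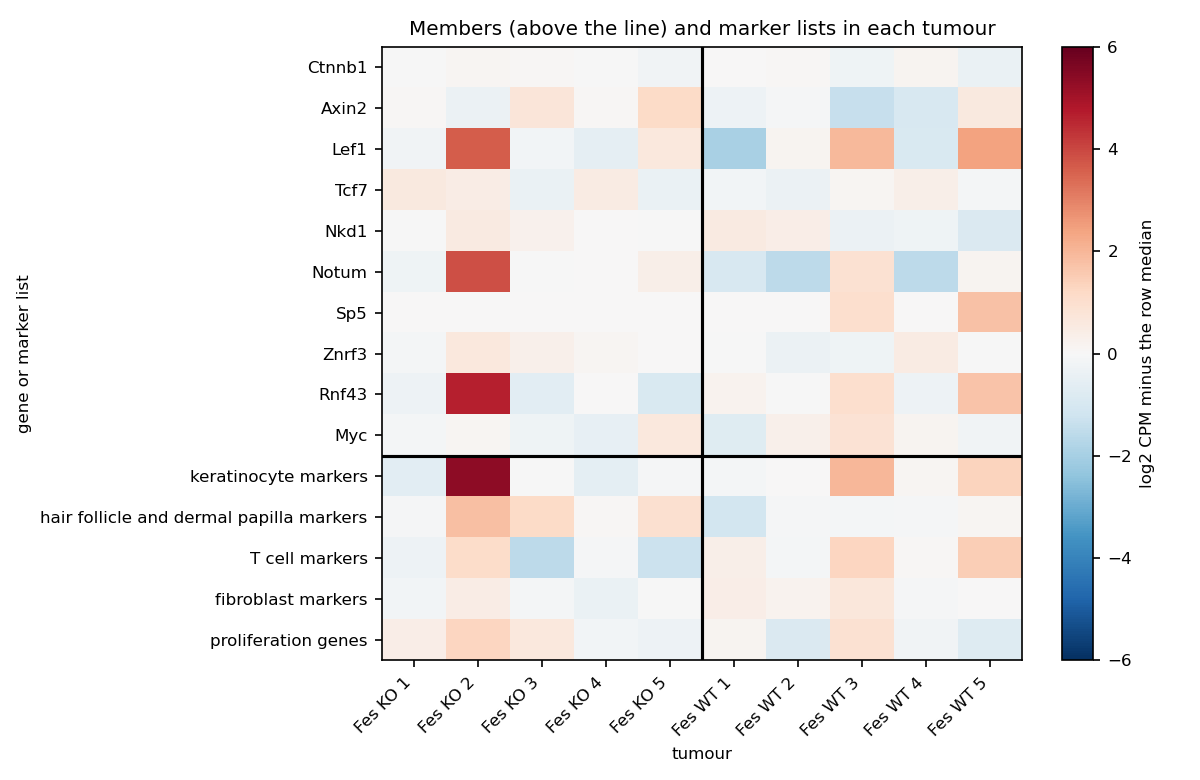
Log2 CPM of each member, and mean log2 CPM over the tested genes of marker lists below the line, minus the median of the 10 tumours in the same row (colour scale), for each tumour (columns, Fes KO left of the vertical line). The deep red cells of Lef1, Notum and Rnf43 are in Fes KO 2, in the same column as the keratinocyte markers.

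The other genes of the pathway were counted in lists ordered by role, and 0 genes of these lists were called by edgeR or limma-voom. DESeq2 called 5. Higher in Fes KO were Amer1 (of 21 destruction complex genes), Wnt6 (of 21 ligand and secretion genes), and Tyr and Dct (of 10 melanocyte targets). The R-spondin gene Rspo3 (of 21 receptor and R-spondin genes) was lower, at a DESeq2 log2 fold change of -2.39. Rspo3 was outside the edgeR filter, so neither edgeR nor limma-voom tested it. DESeq2 called 1.09% of all genes to which it gave a p. That base takes in low genes outside the edgeR filter, so it is not the base of the list counts. The counts of each list are to be read against 52.4% of all genes with a value above 0, and against 4.23% with an unadjusted edgeR p below 0.05 and higher in Fes KO. A median given without some tumours covers the list genes kept by that fit, which can differ from those tested with all 10. Among the ligands and genes of Wnt secretion, 10 of 21 could be tested, 7 had a value above 0 and 2 an unadjusted p below 0.05, both higher in Fes KO (4.23% and 52.4% of all genes for a p in that direction and a value above 0), the list median being 0.63 on the log2 scale and -0.06 without Fes KO 2. Wnt6, at 43.6 ± 14.7 CPM over the Fes KO tumours and 20.4 ± 5.96 CPM over the Fes WT tumours (SD, n = 5 each), had a log2 fold change of 1.10 (SE 0.27, edgeR adjusted p = 0.215). Wls, which carries Wnt ligands to the cell surface, had -0.04. Among the receptors and R-spondins, 17 of 21 were tested, 12 had a value above 0, 3 had an unadjusted p below 0.05, all higher in Fes KO (4.23% of all genes), and the median was 0.30 but 0.04 without the 3 Xist-expressing tumours. Ror2, a receptor for Wnt5a, had a log2 fold change of 0.57 (SE 0.18, edgeR adjusted p = 0.345), and the coreceptor Lrp6 had 0.18. The Frizzled gene Fzd3 had groups that did not overlap, as 1.9% of all genes had, at 4.10 ± 0.731 and 2.84 ± 0.415 CPM (SD, n = 5 each, log2 fold change 0.53, edgeR adjusted p = 0.400).

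In the destruction complex, 20 of 21 genes were tested, 1 had an unadjusted p below 0.05, higher in Fes KO as in 4.23% of all genes, and 17 had a value above 0 (52.4% of all genes), in a narrow band around a median of 0.10 that was 0.05 without Fes WT 5. Amer1, which recruits the complex to the membrane, was at 17.3 ± 1.53 CPM over the Fes KO tumours and 13.6 ± 1.05 CPM over the Fes WT tumours (SD, n = 5 each), with a log2 fold change of 0.35 (SE 0.11, edgeR adjusted p = 0.318). The kinase gene Csnk1a1 had 0.18. All 25 partners and cofactors of TCF/LEF were tested, 1 had an unadjusted p below 0.05, a share near the 4.23% of all genes in that direction, 21 had a value above 0 (52.4% of all genes) and the median was 0.10. The chromatin remodeller gene Smarca4 had a log2 fold change of 0.27 (SE 0.10, edgeR adjusted p = 0.416) and the corepressor Tle3 had -0.09. Of 15 cadherin and catenin genes, 13 were tested, 0 had an unadjusted p below 0.05, 9 had a value above 0 (52.4% of all genes) and the median was 0.21, or 0.08 without Fes KO 2.

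Among 37 further target genes of the pathway, 27 were tested, 16 had a log2 fold change above 0 (52.4% of all genes), and the median was 0.13. Its direction turned to -0.03 without Fes KO 2, and it was 0.01 without Fes KO 1. An unadjusted edgeR p below 0.05 was reached by 5 of the 27, all higher in Fes KO, against 4.23% of all genes in that direction. Bambi, a decoy receptor of TGF-beta signalling, was at 47.4 ± 23.2 CPM over the Fes KO tumours and 18.0 ± 6.48 CPM over the Fes WT tumours (SD, n = 5 each), with a log2 fold change of 1.39 (SE 0.44, edgeR adjusted p = 0.345). Sox9, a transcription factor gene of neural crest and hair follicle, had 1.06 (SE 0.35, edgeR adjusted p = 0.359). Ccnd1, the cyclin of G1 phase, was at 990 ± 315 and 1089 ± 631 CPM (SD, n = 5 each) with a log2 fold change of -0.14. Lgr5 and Dkk1 were among the 10 targets too low to be tested. Of the 10 targets described in melanocytes, 9 were tested, 7 had a value above 0 (52.4% of all genes) and 2 had an unadjusted p below 0.05, both higher in Fes KO (4.23% of all genes). Tyr, at 13.2 ± 21.3 CPM over the Fes KO tumours and 1.12 ± 0.753 CPM over the Fes WT tumours (SD, n = 5 each), had a log2 fold change of 3.55 (SE 1.10, edgeR adjusted p = 0.337), whereas Mitf had -0.10. Tyr was at 2.40, 51.1, 6.66, 5.17 and 0.583 CPM in Fes KO 1 to 5, so that its Fes KO mean rested mostly on Fes KO 2. Fes KO 1, 3 and 4 were still above the highest Fes WT tumour, at 2.03 CPM, and Fes KO 5 was not. Dct was at 35.4, 325, 47.0, 29.9 and 1.89 CPM in Fes KO 1 to 5 and at 6.78 to 21.4 CPM in Fes WT. The log2 fold change of Dct was 2.93 (SE 1.01, edgeR adjusted p = 0.400).

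Downstream of Myc, all 35 target genes on the list were tested, 26 had a value above 0 (52.4% of all genes), 1 had an unadjusted p below 0.05 and was lower in Fes KO (5.39% of all genes), and the median log2 fold change was 0.13. That median was 0.01 without Fes KO 2 and -0.05 without the 3 Xist-expressing tumours. Odc1, the first enzyme of polyamine synthesis, was at 33.6 ± 5.81 CPM over the Fes KO tumours and 54.2 ± 16.3 CPM over the Fes WT tumours (SD, n = 5 each), with a log2 fold change of -0.69 (SE 0.20, edgeR adjusted p = 0.313). Ncl, which encodes nucleolin, had 0.05. In the MYC network of partners and antagonists, 13 of 13 were tested, 8 had a value above 0, 1 had an unadjusted p below 0.05 and was lower in Fes KO, and the median was 0.06, or -0.0014 without Fes WT 3. Max, the partner of MYC on DNA, had 0.04. Proliferation genes had a log2 fold change above 0 in 19 of 19 (52.4% of all genes), with a median of 0.49, and 0 of them were called by edgeR or had an unadjusted p below 0.05. Their mean log2 CPM overlapped between the groups, at 4.15 to 5.73 in Fes KO and 3.58 to 5.33 in Fes WT. Fes KO 2 and Fes WT 3 were the highest of their groups.

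**Figure D5:**
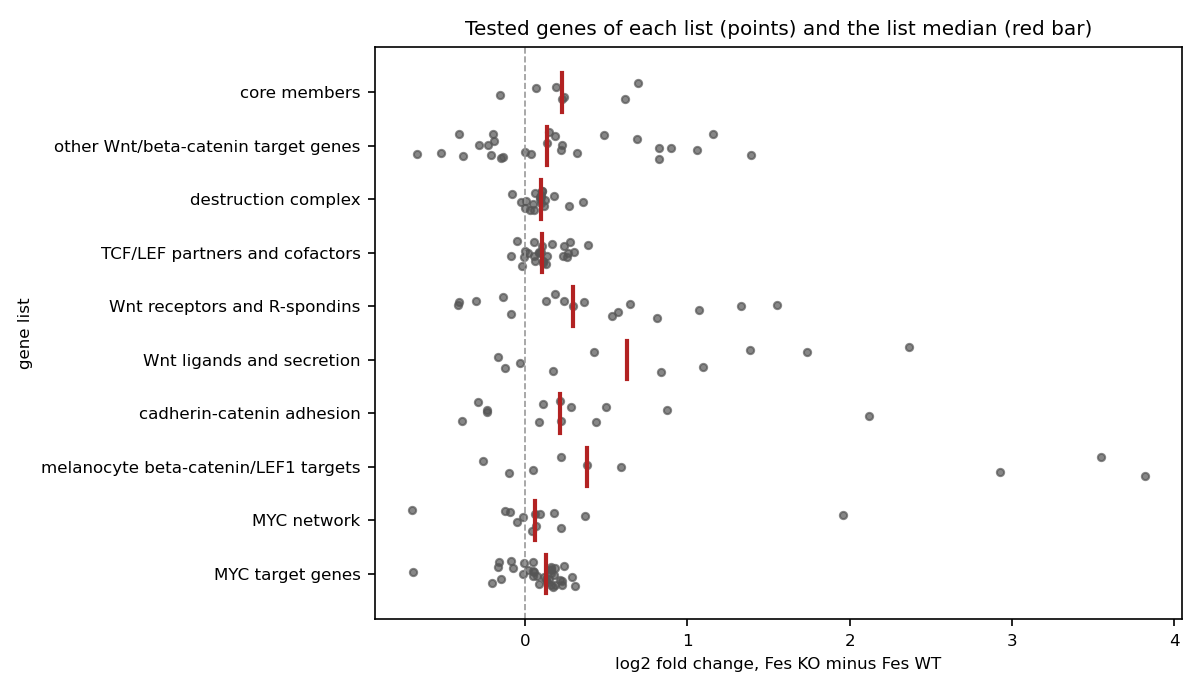
Log2 fold change of Fes KO minus Fes WT (horizontal axis) for each tested gene of the members and of the pathway lists; each point is a gene and the red bar the list's median. Medians lie between 0.06 for the MYC network and 0.63 for the ligands, and no gene shown was called by edgeR.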

How the data were processed

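RNA sequencing of 10 tumours was used, 5 per group, grouped and numbered by the sample titles. The authors deposited whole-number read counts for every gene and a second table with log2 values, which as computed here equal log2 of (count / size factor + 1), with median-of-ratios size factors. The tools, per the submitters' processing notes, were FastQC, STAR (version 2.51b) and Subread (version 1.4.6), with mm10 and GRCm38 as builds. Annotation and strand setting of the counting were not given in the sources used here, so reads of a gene and of an overlapping antisense gene cannot be told apart.

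Counts were tested with edgeR version 4.0.16 (R version 4.3.3): TMM normalization, filterByExpr, quasi-likelihood test, 2-sided, Benjamini-Hochberg adjustment over 14816 genes, called at an adjusted p below 0.05. Each log2 fold change is the Fes KO minus the Fes WT value and has a standard error (SE). Intervals of 95% are those of single genes. Log2 CPM has a prior count of 2. The mean log2 CPM of a list covers only its tested genes, which were 5 of 15 keratinocyte markers and 11 of 15 T cell markers. For the hair follicle and dermal papilla markers they were 3 of 14. Sums of CPM and counts of markers with reads cover all markers found. Members below the filter were compared by exact permutation over 252 assignments. Correlations used 100000 permutations, adjusted over 49 relations. Exon lengths and positions are from GENCODE M21 (GRCm38), and 10 of 10 members matched by Ensembl identifier. The edgeR script was tested on simulated counts.

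Members and the 18 gene lists were chosen with earlier results of these data known. Named genes were the members, Fes, Krt5, the 5 genes most like Axin2, and from each pathway list genes among the 2 with the smallest p and the 2 with the highest level. Mitf, Lgr5, Dkk1, Rspo3 and Xist, and the markers Alx4, Corin and Itga6, fall outside that rule and were chosen after their values were seen. Alternatives were DESeq2 (version 1.42.0), limma (version 3.58.1) with voom or on the deposited log2 values, RLE and upper quartile factors, other filters, a replicate block, covariates for keratinocyte, muscle and T cell markers, and leaving out tumours. No sample was left out of the values reported first.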

Additional observations from a re-analysis of the deposited data

Results flagged for a closer look

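In 58 groups of 5 tumours, covering each member, Fes and each list, 8 held a tumour whose gap to its nearest neighbour took up more of the group's range than Dixon's critical ratio of 0.71 allows, and chance gives about 1 in 20. Of these 8, 7 were Fes KO 2. Among the members they were Lef1 at a log2 CPM of 4.27, Notum at 2.506 and Rnf43 at 3.32. Among the lists, each averaged over its tested genes, they were the keratinocyte markers at a mean log2 CPM of 8.09, the Wnt receptors and R-spondins at 5.48, the Wnt ligands and secretion genes at 4.37 and the MYC network at 5.62. The remaining one was Fes WT 1, at a low mean log2 CPM of 0.72 for the hair follicle and dermal papilla list. That mean covers only the 3 of 14 markers that were tested, Alx4 and Corin among them, and does not describe the list as a whole.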

How the results depend on the processing

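No member was called in any alternative. The number of genes changed in the whole table, 26, was 300 with DESeq2, 115 with limma-voom, 95 with keratinocyte and muscle covariates, 64 without the 3 Xist-expressing tumours, 49 at an adjusted p below 0.1, and 10 to 54 with single tumours left out. The replicate numbers did not pair the tumours: same-numbered tumours correlated at -0.38 to 0.17, and 0 of 5 correlated best with their own number. A fit with the replicate number as a block called 4 genes and 0 members. Fes passed the test in 4 of the 22 alternatives. Among them were DESeq2 at -1.06, limma-voom at -1.16 and the keratinocyte and muscle covariates at -1.18. With single tumours left out, Fes ran from -1.25 to -0.97. Over all 22 alternatives Fes ran from -1.25 to -0.82. The adjusted p of these fits ran from 0.000129 to 0.244, so Fes did not pass in every one. On residuals from the group means, 5 correlations passed against 0, those of Lef1, Notum and Rnf43 with keratinocyte markers and of Notum and Rnf43 with T cell markers.

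Directions turned as follows, and the cause was not tested. Without the 3 Xist-expressing tumours, log2 differences were -0.046 for Ctnnb1, -0.49 for Lef1, -0.050 for Tcf7, -0.059 for Nkd1 and -0.74 for Rnf43. With both the keratinocyte-rich and the muscle-rich tumour left out they were -0.014 for Ctnnb1, -0.92 for Lef1, -0.00066 for Nkd1, 0.063 for Myc and -0.86 for Rnf43. Lef1 was -0.38 with keratinocyte and muscle covariates, and Rnf43 was -0.068 on the deposited log2 values. With single tumours left out, Lef1 ran from -1.22 (without Fes KO 2) to 1.27, Ctnnb1 from -0.0021 (without Fes WT 5) to 0.13, Myc from -0.36 to 0.091 (without Fes WT 3), and Rnf43 from -0.99 (without Fes KO 2) to 0.42, with values below 0 also without Fes WT 1, 2 or 4. Medians of log2 fold changes also turned: the further Wnt targets to -0.03 and the ligands to -0.06 without Fes KO 2, the ligands to -0.04 with DESeq2 and -0.013 with both the keratinocyte-rich and the muscle-rich tumour left out, the MYC network to -0.0014 without Fes WT 3 and -0.016 with both left out, the members to -0.05 and the MYC targets to -0.05 without the 3 Xist-expressing tumours. Each median covers the list genes that its own fit kept, so the genes included can change along with their values. DESeq2 gave a p to 27493 genes against 14816 in edgeR, and its Wnt6 value was 1.09 against 1.10 in edgeR. The medians were not recomputed over a fixed set of genes. For Sp5, with 6 reads in all, a difference was not detectable at this depth.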
